A study of Mus musculus with 6 samples.

Results

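Notch signalling passes between touching cells. A ligand of the Jagged or Delta-like kind on one cell binds a Notch receptor on its neighbour, the gamma-secretase complex cuts the receptor, and the freed intracellular part joins the DNA-binding protein Rbpj and switches on repressor genes of the Hes and Hey families. In the embryonic cochlea, Jag1 is known for marking the prosensory region and the supporting cells, Dll1 is a ligand of young hair cells, and the Hes and Hey repressors keep supporting cells from taking the hair cell fate by holding back Atoh1. The same receptors and targets also work outside the sensory epithelium, with Notch3 best known in the mural cells of blood vessels.

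Signals of 10 Notch pathway genes were compared between mouse cochleae that carried or lacked Igf1, the gene of a growth factor that cells secrete. The genes were the ligands Jag1 and Dll1, the receptors Notch1, Notch2 and Notch3, the sugar transferase Lfng and the targets Hes1, Hes5, Hey1 and Hey2, taken as a list of names with every probe set annotated to 1 of them. That gave 16 of the 22626 probe sets tested and 10 of 12393 genes, with 6 genes read by 2 probe sets and 4 by 1. The samples were 3 pools of Igf1+/+ and 3 pools of Igf1-/- embryos at embryonic day 18.5, each of 4 cochleae from 2 embryos, bred from heterozygous parents on a C57BL/6J background. The labels name no tissue to which the null allele is limited and do not say which part of Igf1 is disrupted. The cochleae held the otic capsule and no vestibular tissue, so each pool mixed sensory epithelium with capsule, nerve, vessels and connective tissue. Each of these independent pools went onto 1 Affymetrix array, and precision is limited by there being 3 arrays a genotype. For the 3 null samples the source label carries the wild type sign, against the title and description, and 1 wild type source label gives a slightly later age.

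Igf1 read lower in each null pool at each of its 3 probe sets, with null signal at 0.502, 0.728 and 0.684 of the wild type level, and its adjusted p in limma ran from 0.599 to 0.887. Whether these probe sets lie in the disrupted part was not tested. The deposited arrays were not on a common scale (medians 5.61 to 6.36), so all levels below are log2 signals after quantile normalization and all differences are null minus wild type. For 42 probe sets of 29 genes of tissues outside the dissection (testis, pancreas, milk gland and others), the 95th percentile was a log2 signal of 3.30. Of the 42, 3 lay above this level, which serves as the measure of dim signal. Above it in at least 1 genotype were 14 of 15 supporting cell and prosensory markers (all but Fgf10), 8 of 12 hair cell markers (all but Cdh23, Espn, Slc26a5 and Tmc1), 11 of 12 endothelial markers (all but Erg), 10 of 10 mural cell and smooth muscle markers, 5 of 5 measured Schwann cell, 8 of 8 neuronal and 7 of 7 periotic mesenchyme markers. Beta-actin 3' signal minus 5' signal, taken on the deposited values, served as a sign of RNA quality. It averaged 0.76 over wild type arrays (SD 0.04, n = 3) and 0.94 over null arrays (SD 0.12, n = 3). Its exact permutation p was 0.1 (two-sided), the smallest that 3 against 3 allows. For Gapdh the same measure averaged 0.25 in wild type (SD 0.06) and 0.35 in null arrays (SD 0.17), with exact permutation p = 0.5. The part of RNA quality in the results below was not tested.

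None of the 10 Notch genes was shown to differ between the genotypes beyond the spread of the pools. In limma's test across all probe sets, 0 of the 16 passed an adjusted p of 0.05 (background 0% of all probe sets), and 0 of 16 had an unadjusted p under 0.05, where 2.41% of all probe sets did with the null higher and 2.59% with the null lower. The smallest unadjusted p was 0.246 and the smallest adjusted p = 0.982. At each of the 16 probe sets the wild type and null arrays overlapped, against 5.50% of all probe sets with every null array above every wild type array and 5.33% with every null array below. The null mean was the higher at 11 and the lower at 5 of the 16, where 50.5% of all probe sets were higher, and the median difference was 0.14, beside 0.0034 over all probe sets. On the scale as deposited the count turned to 7 higher and 9 lower, with a median of -0.037 beside -0.15 over all probe sets. Leaving out null replicate 3 brought the quantile normalized median to 0.050, and leaving out wild type replicate 2 brought it to 0.069.

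For Hes5, Hey2 and Lfng the stretch of DNA around the gene start carries the letters that Rbpj binds, and the matches are shown because Hes5 and Hey2 are known direct targets and Lfng acts on the receptors themselves. The RefSeq promoter table of build GRCm38.p6 (250 bases before to 50 after the gene start, 300 in all) held windows for 8 of the 10 genes, with none for Hes1 and Hey1. GTGGGAA, searched on both strands, stood in the windows of 3 of these 8 genes and in 6.38% of all 32851 windows. Hes5 and Hey2 each held 2 matches, 1 per strand, where 0.256% of all windows held 2 or more. Capitals mark the motif, which reads TTCCCAC where it lies on the strand opposite the gene, and each line runs 5′ to 3′ along the gene's own strand.
Hes5, chr4:154960829-154960857, plus strand, first motif base 83 bases before the start: ggccgccgagtGTGGGAAcggccgcggcg
Hes5, chr4:154960686-154960714, plus strand, first motif base 226 bases before the start: gggcgagcgcgTTCCCACagcccggacat
Hey2, chr10:30842770-30842798, minus strand, first motif base 4 bases before the start, motif running across the start: tgggctgcagcGTGGGAAagaacctccag
Hey2, chr10:30842973-30843001, minus strand, first motif base 207 bases before the start: gcgcggtggcaTTCCCACgcctctgccaa
Lfng, chr5:140607221-140607249, plus strand, first motif base 109 bases before the start: ccgtatcccacGTGGGAAggagagatctc
The shorter core TGGGAA, which lies within that motif, was found in the same 3 genes and in 25.6% of all windows. The N box CACNAG, a sequence bound by Hes repressors, stood in the windows of Dll1, Lfng, Notch1, Notch2 and Notch3 and in 42.5% of all windows. These are matches of letters and do not show binding.

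**Figure D1:**
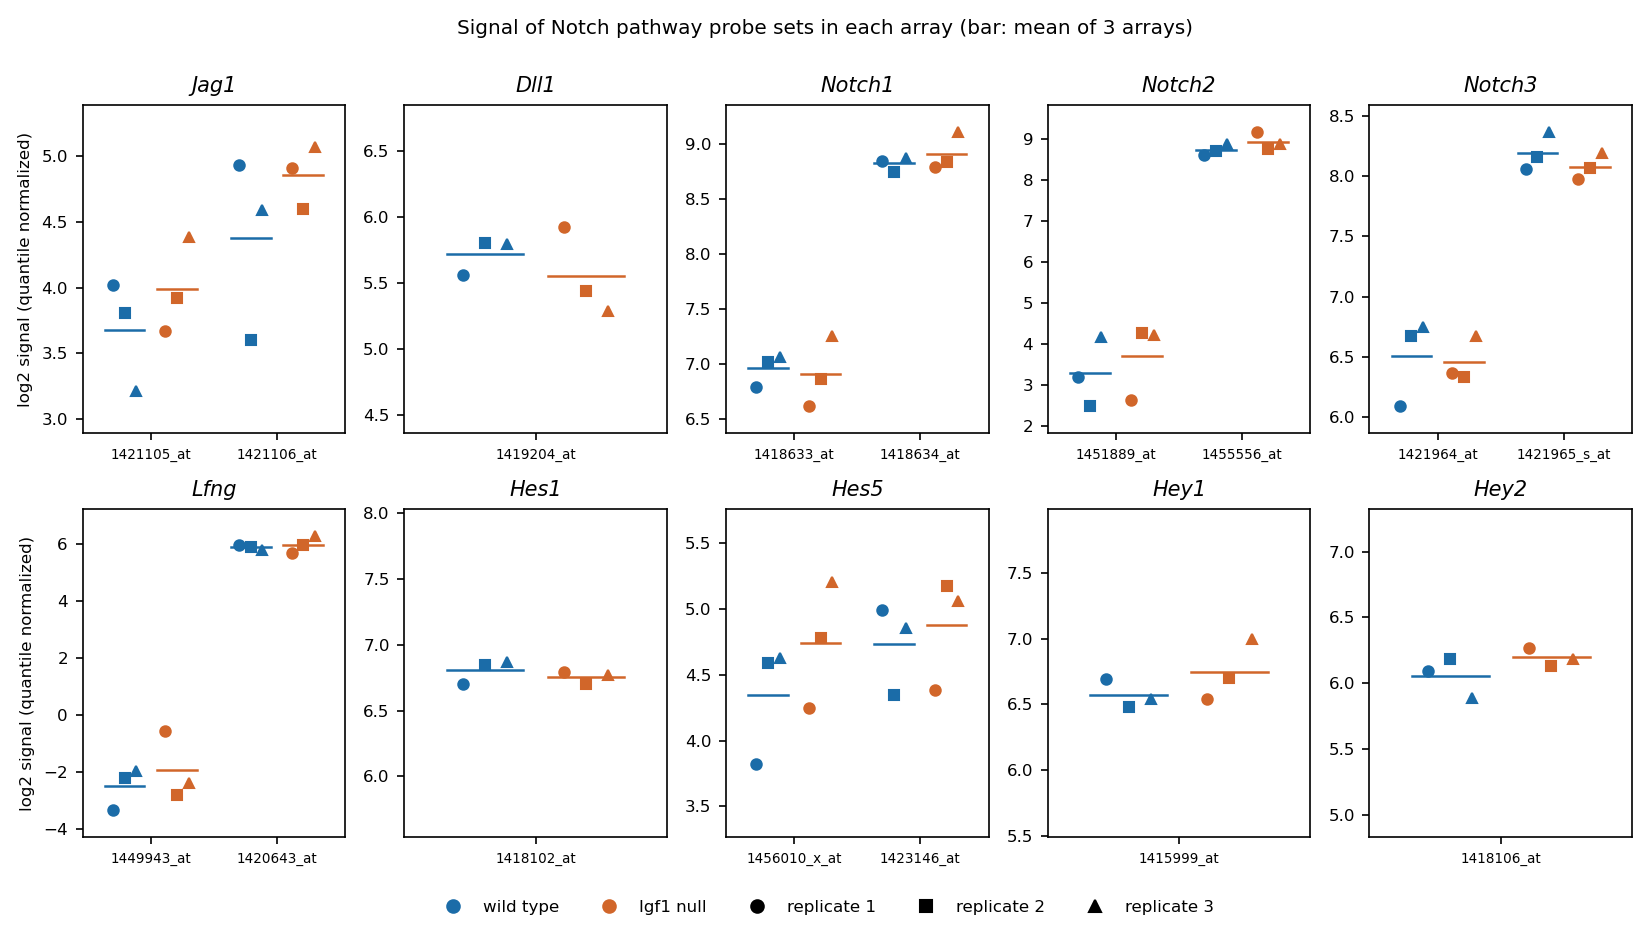
Log2 signal after quantile normalization (y axis) of each probe set (x axis) of the 10 Notch genes in each of the 3 wild type and 3 Igf1 null arrays, with the mean of 3 arrays as a bar and the y axis range set per gene. In each of the 16 probe sets the points of the genotypes overlap, and the dimmest set, of Lfng, lies below 0.

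Jag1, the ligand that marks the prosensory domain, read higher on average in the null pools at both of its probe sets, with wide scatter. Both sets were low in signal, at percentiles 33.8 (1421106_at) and 28.0 (1421105_at) of the levels of all probe sets. Wild type replicate 3 lay below the level for dim signal at 1421105_at. At 1421106_at the wild type pools stood at 4.93, 3.60 and 4.59 (replicates 1 to 3) and the null pools at 4.91, 4.59 and 5.07. The low wild type replicate 2 set most of this gap, and the other wild type pools lay close to or among the null pools. Of the 8 neuronal markers, read at their brightest probe sets, all but Ntrk3 and Gata3 were highest in wild type replicate 2. Their summed linear signal ran from 2628 to 8682 in wild type and from 2973 to 5273 in null pools. The part of tissue content in the Jag1 values was not tested. The Jag1 difference there was 0.48 ± 0.38 (SE), or 1.40 times the wild type signal with a 95% interval of 0.722 to 2.70, adjusted p = 0.982 in limma. Without wild type replicate 2 it was 0.097. At 1421105_at the wild type values were 4.02, 3.80 and 3.22 and the null values 3.67, 3.92 and 4.38, where the lowest pool was wild type replicate 3 and the highest null replicate 3. That Jag1 difference was 0.31 ± 0.29 (SE), with adjusted p = 0.982, and it was 0.079 without wild type replicate 3. As deposited the differences were 0.23 and 0.010, and with a pseudocount of 32 they were 0.19 and 0.095.

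Dll1, the ligand that nascent hair cells show to their neighbours, was the gene with the lowest difference of the 16 probe sets. Its single probe set 1419204_at read 5.56, 5.80 and 5.80 in wild type and 5.92, 5.44 and 5.29 in null pools. Null replicate 1 was the highest of all pools and the other null pools were the lowest, so the genotypes overlapped. The Dll1 difference was -0.17 ± 0.20 (SE), a ratio of 0.890 with a 95% interval of 0.625 to 1.27, adjusted p = 0.986. Leaving out null replicate 1 gave -0.35, and leaving out null replicate 3 gave -0.037.

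Among the receptors, Notch1, which is expressed through much of the prosensory epithelium and in endothelium, gave opposite signs at its 2 probe sets. At 1418634_at the wild type pools read 8.84, 8.75 and 8.87 and the null pools 8.78, 8.83 and 9.11, and null replicate 3 alone stood above the wild type range. The Notch1 difference was 0.087 ± 0.13 (SE), with a ratio interval of 0.844 to 1.34 and adjusted p = 0.988. At 1418633_at the wild type values were 6.80, 7.02 and 7.06 and the null values 6.62, 6.86 and 7.26, with null replicate 1 the lowest and null replicate 3 the highest pool. There the Notch1 difference was -0.048 ± 0.20 (SE), the other sign, with adjusted p = 0.998. Both signs depend on single arrays, the first turning to -0.011 without null replicate 3 and the second to 0.099 without null replicate 1 and 0.0030 without wild type replicate 3.

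Notch2, a receptor of many epithelia, is read by 2 probe sets, 1 of them near the level for dim signal. At 1455556_at the wild type values were 8.61, 8.71 and 8.89 and the null values 9.18, 8.77 and 8.88. Null replicate 1 was the highest pool, while the other null pools lay within the wild type range. The Notch2 difference was 0.21 ± 0.16 (SE), a ratio of 1.15 with a 95% interval of 0.874 to 1.52. In limma it had the smallest unadjusted p of the 16 probe sets, 0.246, with adjusted p = 0.982, and was 0.088 without null replicate 1. At the dim 1451889_at the values ran from 2.48 to 4.17 in wild type and from 2.63 to 4.26 in null pools, and the wild type mean did not pass the level for dim signal. Its difference of 0.42 ± 0.64 (SE) carried a ratio interval of 0.440 to 4.09, and it moved to 0.022 with wild type replicate 2 left out and to 0.96 with null replicate 1 left out.

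Notch3, the receptor of vascular mural cells, read slightly lower in the null pools at both probe sets. At 1421965_s_at (a set whose probes match several transcripts) the wild type pools read 8.06, 8.16 and 8.37 and the null pools 7.98, 8.07 and 8.19. Null replicate 1 was the lowest and wild type replicate 3 the highest, with the other 4 pools between. The Notch3 difference was -0.12 ± 0.13 (SE), with a ratio interval of 0.731 to 1.17 and adjusted p = 0.986, and it was -0.029 without wild type replicate 3. At 1421964_at the wild type values were 6.09, 6.68 and 6.75 and the null values 6.36, 6.33 and 6.67, and the difference of -0.051 ± 0.22 (SE) had adjusted p = 0.999. Its sign turned when single arrays were left out, to 0.034 for wild type replicate 2, to 0.072 for wild type replicate 3 and to 0.011 for null replicate 2. Of the 10 mural cell and smooth muscle markers, read at their brightest probe sets, 10 were lower in null pools, where 50.5% of all probe sets were higher. The largest differences were those of Cspg4 (-0.40 ± 0.22 SE), Abcc9 (-0.32 ± 0.20) and Kcnj8 (-0.25 ± 0.17), picked as examples after the values were seen. None of these passed the threshold. Others lay near 0, with Pdgfrb at -0.0043 ± 0.15 (0.046 after median centring), Myh11 at -0.016 ± 0.48 and Des at -0.028 ± 0.73. The summed linear signal of the 10 markers ran from 3811 to 4700.2 in wild type and from 3694 to 3937 in null pools. Its part in the Notch3 values was not tested, and in whole cochleae fewer cells of a type and less RNA per cell cannot be told apart.

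Lfng encodes Lunatic fringe, a sugar transferase that alters how Notch receptors respond to Jagged and Delta-like ligands and that is known from supporting cells of the cochlea. At 1420643_at the wild type pools were tightly grouped at 5.98, 5.90 and 5.81, and the null pools read 5.69, 5.97 and 6.28. The null pools thus held both the lowest and the highest value, replicates 1 and 3. The Lfng difference was 0.087 ± 0.18 (SE), with a ratio interval of 0.774 to 1.46 and adjusted p = 0.994, and it was -0.064 without null replicate 3 and -0.095 as deposited. The other Lfng probe set, 1449943_at, was the 1 of 16 that did not pass the level for dim signal, with values from -3.34 to -1.96 in wild type and from -2.83 to -0.58 in null pools. Its difference of 0.58 ± 0.71 (SE) is between dim values.

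Hes1, a basic helix-loop-helix repressor that Notch induces in many tissues, had the narrowest interval of the 10 genes. The single probe set 1418102_at read 6.70, 6.85 and 6.87 in wild type and 6.80, 6.70 and 6.77 in null pools. The 6 pools ran from 6.70 to 6.87, with the lowest wild type pool level with the lowest null pool. The Hes1 difference was -0.051 ± 0.11 (SE), a ratio of 0.965 with a 95% interval of 0.800 to 1.16, adjusted p = 0.994. Leaving out wild type replicate 1 took it to -0.10 and leaving out wild type replicate 3 to -0.019, and as deposited it was -0.21.

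Hes5 is the Hes gene most closely tied to Notch activity in cochlear supporting cells, and both of the separate Rbpj motif matches shown above lie upstream of it. At 1423146_at the wild type values were 4.997, 4.35 and 4.85 and the null values 4.39, 5.18 and 5.06, with 1 low pool in each genotype (wild type replicate 2 and null replicate 1). The Hes5 difference was 0.14 ± 0.29 (SE), with a ratio interval of 0.667 to 1.83 and adjusted p = 0.993. Leaving out either wild type replicate 2 (-0.050) or null replicate 2 (-0.0079) turned its sign, leaving out null replicate 1 raised it to 0.39, and as deposited it was -0.10. At 1456010_x_at, a set with probes that can match other sequences, the wild type values were 3.82, 4.59 and 4.63 and the null values 4.25, 4.78 and 5.21. The highest were null replicates 3 and 2 and the lowest wild type replicate 1. There the Hes5 difference was 0.40 ± 0.34 (SE), a ratio of 1.32 with an interval of 0.720 to 2.403 and adjusted p = 0.982, and it was 0.13 without wild type replicate 1.

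Hey1 and Hey2, relatives of the Hes repressors, each have 1 probe set. For Hey1 the wild type pools read 6.69, 6.48 and 6.54 and the null pools 6.54, 6.70 and 6.997. Null replicate 3 stood clear above the wild type range and null replicate 2 at its upper edge, and without null replicate 3 the difference of 0.17 ± 0.16 (SE) became 0.049. The ratio interval for Hey1 was 0.856 to 1.49, with adjusted p = 0.982. For Hey2 the wild type values were 6.09, 6.18 and 5.89 and the null values 6.26, 6.13 and 6.19. Wild type replicate 3 was the lowest pool and null replicate 1 the highest, with a difference of 0.14 ± 0.12 (SE), a ratio interval of 0.888 to 1.37 and adjusted p = 0.982. The Hey2 difference was 0.059 without wild type replicate 3 and -0.036 as deposited.

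**Figure D2:**
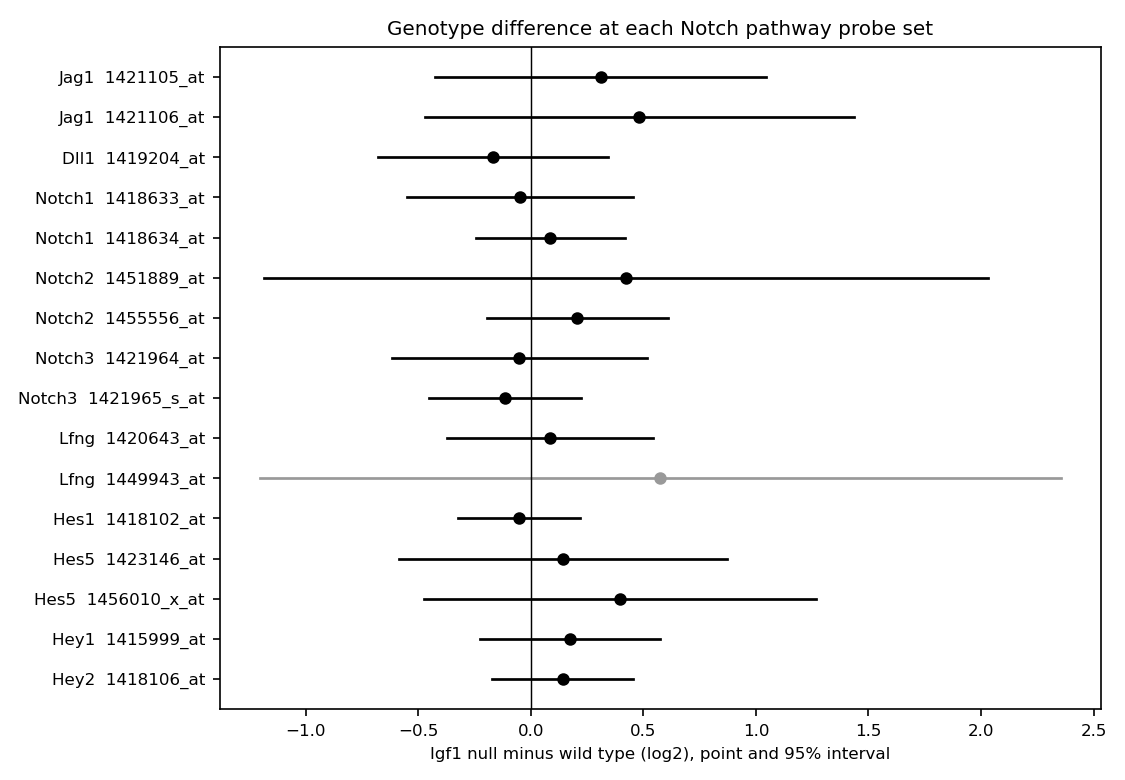
Igf1 null minus wild type log2 difference (x axis) with its 95% interval from limma for each of the 16 probe sets (y axis), with the set below the level for dim signal in grey. All 16 intervals include 0, the narrowest for Hes1 (-0.32 to 0.22) and the widest for the dim sets of Lfng and Notch2.

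How large a change these arrays could have missed differs between the genes. All 16 of the 95% intervals, which are per probe set and not corrected for their number, included 0. At 11 probe sets of 9 genes the interval lay inside a 2-fold change in either direction. Jag1 had no such set, with ratio intervals of 0.722 to 2.70 and 0.745 to 2.07. A second set of Hes5 (0.720 to 2.403), of Notch2 (0.440 to 4.09) and of Lfng (0.434 to 5.12) also reached past 2-fold. At 7 probe sets of 6 genes (Notch1, Notch3, Lfng, Hes1, Hey1 and Hey2) the interval lay inside a 1.5-fold change, while the second sets of Notch3 and Lfng reached past it. All 16 differences lay between the 5th and 95th percentile of the differences of all probe sets, -0.94 and 0.94. The median standard error was 0.20 for the 16 and 0.21 for all probe sets.

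Some pools stood at the top or the bottom for several members at once. Null replicate 3 held the highest of the 6 values at 7 of the 16 probe sets (both of Jag1, both of Notch1, 1 each of Lfng, Hes5 and Hey1), where it was the highest array at 21.1% of all probe sets. The same array had the highest beta-actin 3' minus 5' difference, 1.08, and whether this bears on its Notch values was not tested. Wild type replicates 1 and 2 were the highest array at 0 of the 16, where they were highest at 16.5% and 17.997% of all probe sets. They were the lowest at 5 each, where they were lowest at 15.98% and 19.2% of all probe sets. Null replicate 1 was the highest at 4 and the lowest at 3, beside 19.3% and 19.95% of all probe sets.

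A further number in the titles is 14 on the arrays of replicate 1 and 16 on all others, and the labels do not explain it. At 12 of the 16 Notch probe sets the difference within number 14 (1 array each) had the opposite sign to that within number 16 (2 arrays each), and the same was so for 48.9% of all probe sets. Dll1 stood at 0.36 within 14 and -0.43 within 16, Jag1 at -0.020 and 0.73 (1421106_at), Hes5 at -0.61 and 0.52 (1423146_at), Hes1 at 0.10 and -0.13, and Hey1 at -0.15 and 0.34. Hey2 kept its sign, with 0.17 and 0.13, as did the second Hes5 set with 0.43 and 0.38.

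**Figure D3:**
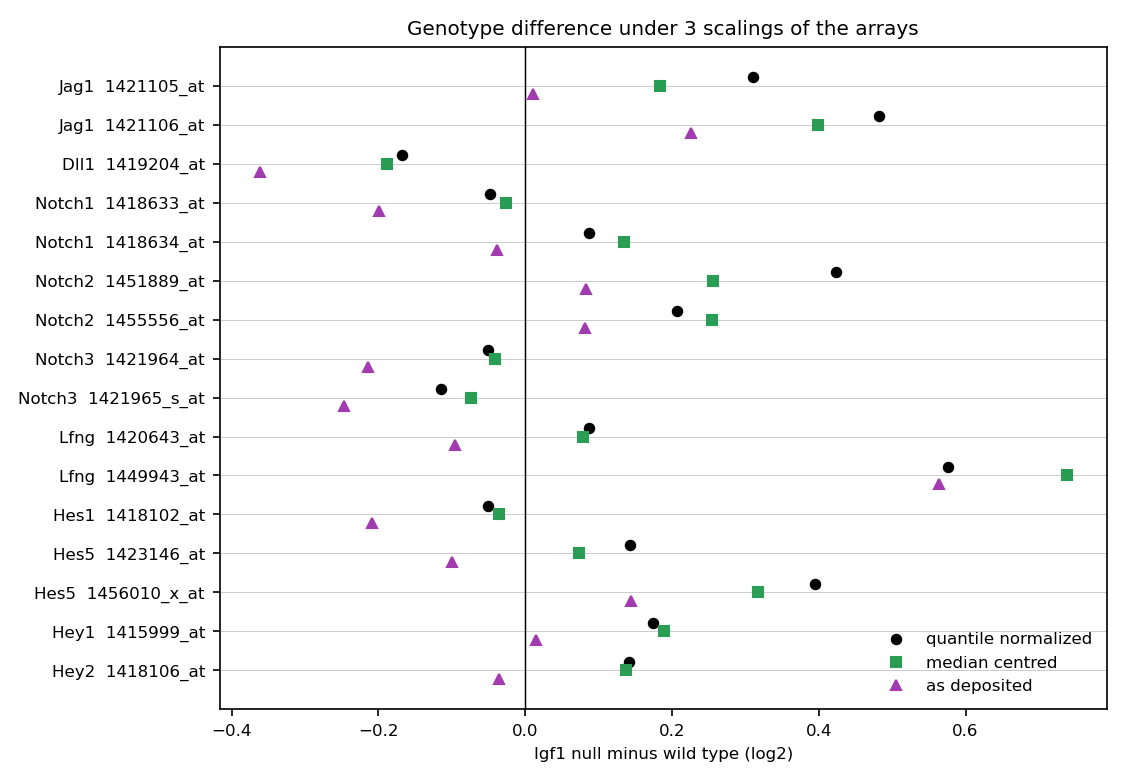
Igf1 null minus wild type log2 difference (x axis) at each of the 16 probe sets (y axis) after quantile normalization (circles), after centring each array on its median (squares) and on the values as deposited (triangles). Of the 16 probe sets 12 kept 1 sign under all 3 scalings, and 1 set each of Notch1, Lfng, Hes5 and Hey2 turned from positive to negative on the deposited values, where the median of all probe sets is -0.15.

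Of 54 other Notch pathway genes listed by role, 45 were measured, at 79 probe sets, of which 71 passed the level for dim signal in at least 1 genotype. In limma 0 of the 79 passed an adjusted p of 0.05 and 1 (Dtx2) had an unadjusted p under 0.05, with the null higher, where 2.41% of all probe sets did. In 7 every null array lay above every wild type array and in 3 below, beside 5.50% and 5.33% of all probe sets. Differences were above 0 at 41 and below 0 at 38, with a median of 0.011.

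The 8 probe sets with the smallest p among those above the dim level in at least 1 genotype are given as values. Picking by smallest p favours sets in which the genotypes do not overlap. Dtx2, a Deltex ubiquitin ligase that acts on Notch receptors, read 5.71, 5.93 and 5.79 in wild type and 6.41, 6.15 and 6.39 in null pools, each null pool above each wild type pool. Its difference was 0.50 ± 0.13 (SE) with an unadjusted p of 0.0108 and adjusted p = 0.887 (limma), while its other probe set stood at 0.078 ± 0.15. On the deposited values the unadjusted p of the first set was 0.289 in limma. Pofut1, the enzyme that adds fucose to Notch receptors, differed by 0.95 ± 0.38 at 1 probe set and by -0.50 ± 0.36 at the other, so the signs disagreed. The first of these fell to 0.56 with wild type replicate 1 left out, and stood at 2.06 within title number 14 and 0.39 within 16. Mib2, a ligase of Notch ligands, stood at 0.21 ± 0.10, and Snw1, a cofactor of the Rbpj complex, at 0.20 ± 0.10 with 0.013 ± 0.15 at its other set. In all 4 of these sets the null pools lay above the wild type pools.

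The other 4 read lower on average in null pools. Tle1, a Groucho corepressor that Hes proteins recruit, stood at -0.24 ± 0.12 (SE), with 0.19 ± 0.17 at its other set, and Psen2, a presenilin of the gamma-secretase complex, at -0.20 ± 0.11, with null pools below wild type pools in both. Nrarp, a Notch target that feeds back on the pathway, stood at -0.29 ± 0.16 (-0.17 with wild type replicate 3 left out), and its other set, in which null pools lay below wild type pools, at -0.12 ± 0.10. Dll4, the ligand of vascular tip cells, read 4.14, 3.85 and 3.95 in wild type and 2.13, 4.02 and 3.18 in null pools at 1421826_at. The wild type mean of 3.98 passed the dim level there and the null mean of 3.11 did not. The low null replicate 1 set most of the Dll4 difference of -0.87 ± 0.49 (SE), which was -0.38 without that array. The genotypes overlapped there and at the other set (-0.29 ± 0.33). Endothelial markers, read at their brightest probe sets, were lower in null pools for 10 of 12, where 50.5% of all probe sets were higher. None passed the adjusted threshold in limma. Some lay near 0, with Cldn5 at -0.016 ± 0.18 (0.022 after median centring) and Esam at -0.042 ± 0.14. Erg, which was higher, did not pass the dim level. The summed linear signal of the 12 markers ran from 1622 to 1884 in wild type and 1599 to 1712 in null pools. The part of these markers in the Dll4 values was not tested. In limma the adjusted p was 0.982 for each of the 7 sets named by this rule other than that of Dtx2.

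Jag2, Notch4, Rbpj and Heyl were picked for their roles after the values were seen, and none of their probe sets passed the adjusted threshold in limma. Jag2, a ligand of hair cells, stood at -0.088 ± 0.15 and 0.013 ± 0.11 (SE), the endothelial receptor Notch4 at -0.0089 ± 0.13 and 0.26 ± 0.15, and Rbpj, the DNA-binding partner of all Notch receptors, at -0.10 ± 0.12 and -0.091 ± 0.10. Heyl, a further Hey repressor, stood at -0.086 ± 0.20, -0.025 ± 0.38 and -0.11 ± 0.17. Atoh1, the hair cell factor that Hes and Hey repressors hold back, read 5.08, 5.13 and 5.21 in wild type and 4.86, 5.09 and 5.11 in null pools. Its lowest value was null replicate 1 and the genotypes overlapped, with a difference of -0.12 ± 0.12 (SE) and adjusted p = 0.982, or -0.039 without null replicate 1.

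Of 15 supporting cell and prosensory markers, read at their brightest probe sets, 9 were higher and 6 lower in null pools, with summed linear signal from 3773 to 3951 in wild type and 3591 to 4695 in null pools. As examples picked after the values were seen, the prosensory factor Sox2 differed by 0.24 ± 0.15 (SE), and Gjb2 and Gjb6, the connexins of supporting cells, by -0.27 ± 0.17 and -0.25 ± 0.17. Otog had the largest difference among those above the dim level, 0.67 ± 0.30. Each of its null pools lay above each wild type pool, as was so for 5.50% of all probe sets. None of the 15 passed the adjusted threshold in limma. For hair cell markers 9 were higher and 3 lower, with sums of 524 to 634 in wild type and 548 to 679 in null pools. These counts include markers that did not pass the dim level, Slc26a5, Espn and Tmc1 (higher) and Cdh23 (lower). The supporting cell count likewise includes the dim Fgf10 (higher). Over all probe sets 50.5% were higher.

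**Figure D4:**
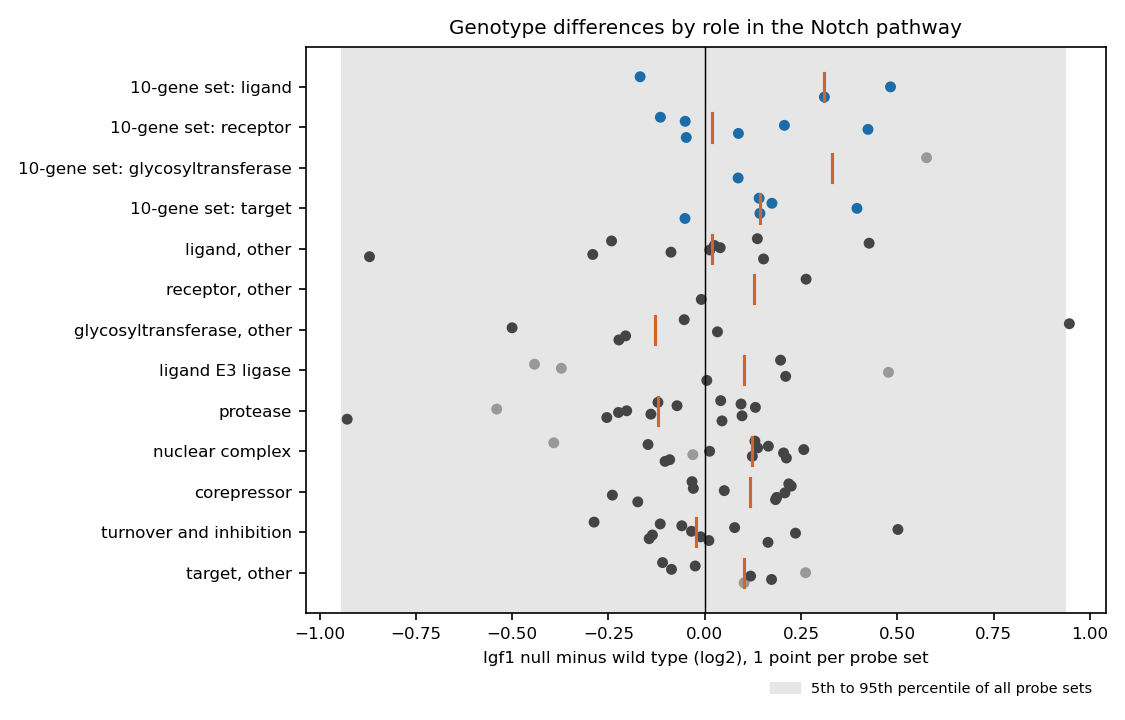
Igf1 null minus wild type log2 difference (x axis) of each probe set, by role in the pathway (y axis), with the 10 genes of the set in blue, other pathway genes in dark grey, sets below the level for dim signal in light grey, the median of each role as an orange bar and the 5th to 95th percentile of all probe sets as a band. All 16 sets of the 10 genes lie within the band, and 1 of the 79 others, a set of Pofut1 at 0.95 (0.56 with wild type replicate 1 left out), lies just outside it.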

How the data were processed

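The authors deposited log2 signals, 1 for each array at each probe set. Base 2 was inferred from their range, and how probes were summarised and background removed is not given in the sources used here. Labelled cRNA was made by the Affymetrix protocol, per the labels' protocols. The arrays were quantile normalized here, and 64 control probe sets were left out, leaving 22626, of which 20380 had 1 gene, 691 several and 1555 none in the platform annotation. All 55 measured pathway genes matched the RefSeq gene table by Entrez identifier. Groups came from the titles. The null pools were set against wild type pools in limma 3.58.1 under R 4.3.3 (lmFit, eBayes, no covariate, two-sided, Benjamini-Hochberg over all probe sets), after a check on simulated data, with exact permutation tests for single values.

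The members, the lists and the tests were chosen with earlier results of these data known. Named were all probe sets of the 10 genes, the 8 other pathway sets of smallest p above the dim level, Atoh1, and Igf1 as the check. Adipoq (7.27) and Cela1 (4.10) were the brightest of the 42 probe sets behind the dim level. Pathway and marker lists and their results are in the text. Alternatives comprised other scalings, blocks, a trended variance, array weights (statmod 1.5.0), a pseudocount of 32, a filter at the 40th percentile and leaving out each array.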

Additional observations from a re-analysis of the deposited data

How the results depend on the processing

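Under each of the 15 alternatives to the fit, 0 of 22626 probe sets (of those above the 40th percentile with the filter), 0 of the 16 Notch sets and 0 of the other pathway sets passed the adjusted threshold in limma, and 0 of the 16 had an unadjusted p under 0.05. The smallest unadjusted p of a Notch set under any of them was 0.054, when the 2 arrays titled 14 were dropped, an alternative chosen after the data were seen. With the replicate number as a block, which leaves each difference and so the median of 0.14 as it is by construction, the smallest p was 0.0563, for a Hes5 set (1456010_x_at) whose p was 0.300 without the block, and no call changed. Deviations of same-numbered arrays from their group means correlated at 0.040, 0.10 and 0.021 over all probe sets and at 0.189, 0.376 and 0.143 over those above the median level. Of 6 arrays 5 correlated best with their own number, a hint from the data and not from the design. These 6 outcomes share the same correlations, each read from both genotypes, so they are not independent. On the deposited values the median of the 16 was -0.037, and 4 sets turned sign, of Notch1 (-0.038), Lfng (-0.095), Hes5 (-0.10) and Hey2 (-0.036). Without title number 14 a Notch1 set turned to 0.017 and the dim Lfng set to -0.52. With single arrays left out, the sets that changed sign ran from -0.22 to 0.099 and from -0.011 to 0.15 for Notch1, from -0.26 to 0.072 for Notch3, from -0.064 to 0.23 and (dim) from -0.098 to 1.03 for Lfng, and from -0.050 to 0.39 for Hes5. The median was 0.019 over the 10 sets left by the filter (5 higher and 5 lower) and 0.076 with the pseudocount. Against the brightest reference set in place of the 95th percentile, 3 of 10 genes (Notch1, Notch2 and Notch3) stood above it. Averaged over its 2 sets, Notch1 differed by 0.020, and the other 5 genes with 2 sets kept their direction. With 3 arrays a genotype, 9 of the 16 intervals reached past a 1.5-fold change.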
